A study of Mus musculus with 9 samples.

Results

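Blood vessels are built from endothelial cells, which line the lumen, and from mural cells, the pericytes and smooth muscle cells that wrap the tube. The 36 genes described here mark those cells or signal to them: 18 endothelial genes, 7 pericyte genes, 6 smooth muscle genes and 5 angiogenic factors. They were chosen by symbol from the 54532 genes of the deposited table, and all 36 were found in it. Growing cartilage of the limb is largely free of vessels, while the connective tissue around it is vascular. Signalling runs from VEGF ligands to the receptors Kdr, Flt1 and Flt4, from angiopoietins to Tek, and from PDGF-B on endothelium to Pdgfrb on mural cells.

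The cells came from developing knees of mouse embryos at the E14.5 stage of gestation. Every embryo carried 1 Creb53XHA-P2A-tdTomato allele, in which tdTomato (the RFP signal) is made with a tagged Creb5 protein, and 1 Sox9iresEGFP allele, in which EGFP follows Sox9, the transcription factor of the cartilage lineage. No embryo without these alleles was compared, so all groups share both. Cells were sorted into GFP-only (Sox9 reporter), RFP-only (Creb5 reporter) and double-positive populations, with 3 libraries each, from litters 1, 2 and 5. Each library holds the sorted cells of a litter, the litters were isolated on separate dates, and every litter gave all 3 populations. The sort took any cell with the reporter signal and used no vascular marker, and knee cells without either reporter are not analysed here.

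The libraries held 25199258 to 47079305 recovered reads. Creb5 lay at 138 to 274 normalized counts in GFP-only, 2754 to 3408 in double-positive and 2006 to 3531 in RFP-only libraries, and Sox9 at 22771 to 37992, 16565 to 29767 and 1091 to 1891, each lowest in the population sorted without its reporter. Reads of other cell types were present and unequal. The summed level of 14 macrophage and leukocyte markers was 1336 to 2296 normalized counts in GFP-only, 3344 to 21559.6 in double-positive and 1901 to 5823 in RFP-only libraries, highest in the double-positive library of litter 5. Skeletal muscle markers summed to 768 to 2267, 895 to 3137 and 8219.9 to 31990.1, and chondrocyte markers to 1382184 to 1942103, 270952 to 789919 and 5565 to 12778, in the same order. Values below are normalized counts in litters 1, 2 and 5, in that order; a difference is in log2(normalized count + 1) with its standard error, and p-values are adjusted over 17764 genes from a limma fit of all 9 libraries. A gene was called at an adjusted p under 0.05. Where a call depended on a library, the adjusted p without that library follows in brackets.

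Reads of endothelial, pericyte and smooth muscle genes were found in every library. Of the 36 genes, 35 passed the filter on low values; Higd1b, a mitochondrial protein enriched in pericytes, had 5 reads in the 3 GFP-only, 0 in the double-positive and 1 in the RFP-only libraries and was not tested. Against GFP-only cells, RFP-only cells had higher levels of 20 of the 35 genes and a lower level of 1, where 20.3% of all 17764 tested genes were called (11.8% higher, 8.48% lower). Double-positive cells had higher levels of 9 and lower levels of none (8.29% of all genes called, 5.27% higher, 3.02% lower). For lower levels, limma called 0 of the 35, 1 had an unadjusted p under 0.05, and edgeR and DESeq2 called 0. Between the 2 sorted populations with the Creb5 reporter, called the Creb5 populations below, 1 gene was higher and 3 were lower in double-positive cells than in RFP-only ones (2.85% of all genes called, 1.80% higher, 1.05% lower). The median difference of the 35 genes was 2.16 in RFP-only and 1.21 in double-positive against GFP-only cells, beside 0.05 and 0.04 over all tested genes, and -0.84 between double-positive and RFP-only cells, beside -0.01. In RNA of pooled sorted cells, fewer cells of a type and less RNA per cell cannot be told apart. A fit of only the 2 populations compared called 4 genes between double-positive and GFP-only and 8 between double-positive and RFP-only cells, where DESeq2 called 7; over all genes those calls went from 1472 to 697 and from 506 to 1008, and to 1152 with DESeq2. Leaving out a library moved the counts too: to 5 between double-positive and GFP-only cells without double-positive litter 2, to 13 between RFP-only and GFP-only cells without RFP-only litter 2 or 5, and between double-positive and RFP-only cells to 7 without GFP-only litter 5 and to 2 without double-positive litter 1 or 5 or any RFP-only library. The calls over all genes moved the same way, to 637 without double-positive litter 2, from 3601 to 2491 and 2202 without RFP-only litters 2 and 5, to 1070 without GFP-only litter 5, and to 216, 235, 284, 224 and 242 without double-positive litters 1 and 5 and RFP-only litters 1, 2 and 5. The members' counts are therefore to be read against those of all genes.

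The commonest order of the mean normalized counts was RFP-only, then double-positive, then GFP-only, held by 23 of the 35 genes. In 7 genes the double-positive mean was the highest: Esam, Nos3, Mcam, Rgs5, Cnn1, Mylk and Vegfa. Only Cspg4 had the reverse order, and only Egfl7 was highest in GFP-only and lowest in double-positive cells. The differences are of log2 values and can rank populations otherwise. Between double-positive and RFP-only cells they were -0.17 for Esam and -0.11 for Nos3. Both genes had their highest library in double-positive litter 2. The 3 populations of a litter shared an isolation date, so differences within a litter compare cells of the same date. RFP-only was above GFP-only in all 3 litters for 29 genes and below it in all 3 for 1; double-positive was above GFP-only in all 3 litters for 21 and below for 1. Every library of the RFP-only group exceeded every GFP-only library for 25 genes (39.4% of all genes had groups that did not overlap, 20.9% in that direction), and the double-positive group did so for 10 (28.1% and 14.3%). Between the Creb5 populations, double-positive libraries were all above for 3 genes and all below for 14 (23.8% of all genes did not overlap, 11.2% above and 12.6% below).

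**Figure D1:**
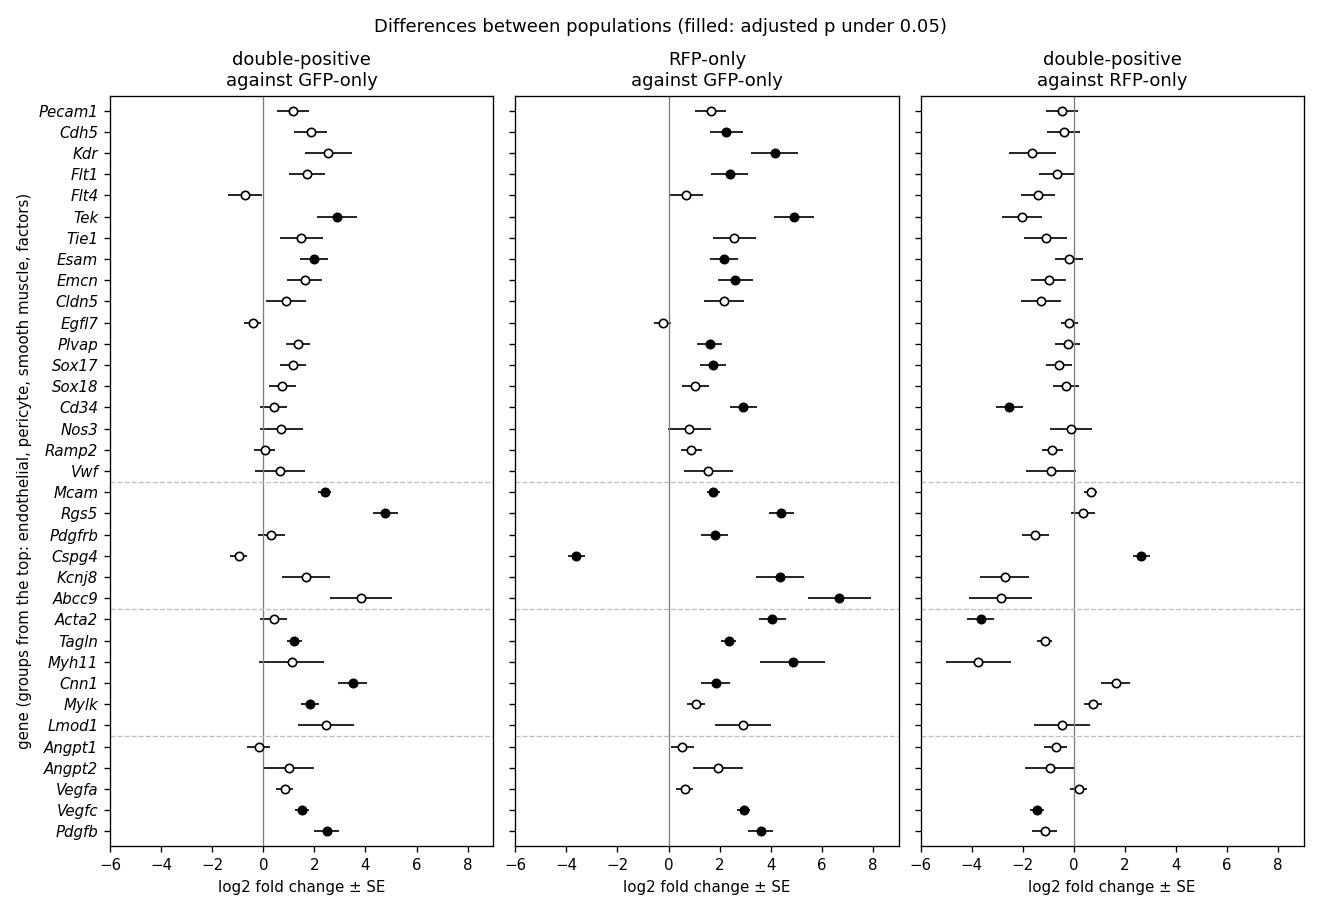
Differences of 35 genes between the 3 sorted populations. The horizontal axes give the log2 fold change on the log2(normalized count + 1) scale with its standard error, each row is a gene, dashed lines separate the endothelial, pericyte, smooth muscle and angiogenic factor genes, and filled points passed an adjusted p of 0.05. Most points lie right of 0 in the first 2 panels, with 9 and 21 filled, and Cspg4 lies far left in the middle panel.

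Among the 18 endothelial genes, 9 were higher in RFP-only and 2 in double-positive cells than in GFP-only ones (11.8% and 5.27% of all genes were). In double-positive cells 1 was lower than in RFP-only ones (1.05% of all genes were). By limma 0 of the 18 were lower than in GFP-only cells in either Creb5 population, at an unadjusted p under 0.05 0 as well, and with edgeR and DESeq2 also 0. Their median differences were 1.96, 1.17 and -0.76. All 18 lay below 0 between double-positive and RFP-only cells, although with edgeR Esam, Plvap and Nos3 lay above it. In RFP-only cells the widest endothelial differences from GFP-only were those of the receptors Tek and Kdr. Tek (chr4:94739289-94874976, GRCm38), the angiopoietin receptor TIE2, had normalized counts of 113, 84.5 and 9.50 (GFP-only), 210.4, 736 and 269 (double-positive) and 1072, 1436 and 1798 (RFP-only). The RFP-only libraries were all above the double-positive ones, and these above the GFP-only ones. Tek was higher in RFP-only cells than in GFP-only ones by 4.91 ± 0.78 (adjusted p = 0.00136) and in double-positive cells by 2.89 ± 0.78 (adjusted p = 0.0452); within litters the latter difference was 0.89, 3.11 and 4.69. The double-positive call ended at adjusted p = 0.0663 with no filter on low genes, 0.0524 after quantile normalization, 0.117 in a fit of those 2 populations alone and 0.0585 with edgeR, and without double-positive litter 1, 2 or 5 (0.0698, 0.171 and 0.0824) or RFP-only litter 1, 2 or 5 (0.0662, 0.0697 and 0.0673). Double-positive against RFP-only cells gave -2.01 ± 0.78 (adjusted p = 0.259); it was called at adjusted p = 0.038 in a fit of those 2 populations alone and without GFP-only litter 5 (0.0246).

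The VEGF receptors Kdr and Flt1 followed the same order of means. Kdr (chr5:75932827-75978458), the VEGFR2 receptor that carries most VEGF-A signalling in endothelium, had normalized counts of 19.8, 231 and 47.5 (GFP-only), 85.5, 944 and 559 (double-positive) and 860.0, 1111 and 1393 (RFP-only). Litter 2 was the high GFP-only library and litter 1 the low double-positive one, so those groups overlapped. The RFP-only difference was 4.16 ± 0.92 (adjusted p = 0.00858); the double-positive difference was 2.54 ± 0.92 (adjusted p = 0.116), called at adjusted p = 0.0345 with litter as a block and without GFP-only litter 2 (0.0298) or double-positive litter 1 (0.0356). Flt1 (chr5:147561604-147726011), VEGFR1, which binds VEGF-A and limits its supply to Kdr, had counts of 23.1, 165 and 48.8 (GFP-only), 73.0, 317 and 298 (double-positive) and 324, 306 and 286 (RFP-only). Its 3 RFP-only libraries lay close together while the GFP-only ones spread widely, and the double-positive range overlapped both. Flt1 was higher in RFP-only cells by 2.39 ± 0.71 (adjusted p = 0.0349), a call that ended at adjusted p = 0.0535 with no filter on low genes and 0.0808 with edgeR or without GFP-only litter 1 or 5 (0.091 and 0.0761) or RFP-only litter 1, 2 or 5 (0.0986, 0.0864 and 0.0897). The double-positive difference from GFP-only was 1.71 ± 0.71 (adjusted p = 0.162), called without GFP-only litter 2 (0.0391).

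Junction genes of endothelium behaved alike in direction. Cdh5 (chr8:104101625-104144511), VE-cadherin of the adherens junction, had normalized counts of 14.1, 57.5 and 100.4 (GFP-only), 96.1, 239 and 179 (double-positive) and 239, 225 and 178 (RFP-only). The double-positive library of litter 1 fell inside the GFP-only range and the RFP-only group stood clear of it. The RFP-only difference was 2.26 ± 0.64 (adjusted p = 0.029), a call that ended at adjusted p = 0.056 in a fit of those 2 populations alone and 0.051 with edgeR and without GFP-only litter 1 (0.0557) or RFP-only litter 1, 2 or 5 (0.0927, 0.0802 and 0.0668), and the double-positive one 1.85 ± 0.64 (adjusted p = 0.1), called without GFP-only litter 5 (0.0328). Esam, an adhesion molecule of endothelial tight junctions, had counts of 52.1, 125 and 93.6 (GFP-only), 147, 723 and 363 (double-positive) and 363, 506 and 302 (RFP-only). Both Creb5 populations lay above the GFP-only libraries without overlap, and they overlapped each other. Esam was higher by 2.16 ± 0.55 in RFP-only cells (adjusted p = 0.0171), above the threshold without RFP-only litter 1 or 2 (0.0509 and 0.0667). It was higher by 1.98 ± 0.55 in double-positive cells (adjusted p = 0.0481). The latter call ended at adjusted p = 0.0724 with no filter on low genes, 0.0652 after quantile normalization and 0.119 in a fit of those 2 populations alone or without GFP-only litter 1 or 5 (0.104 and 0.0685), double-positive litter 2 or 5 (0.176 and 0.117) or RFP-only litter 1, 2 or 5 (0.075, 0.0691 and 0.069). Pecam1, the platelet and endothelial adhesion molecule CD31, had counts of 115, 297 and 96.3 (GFP-only), 117, 713 and 447 (double-positive) and 602, 488 and 346 (RFP-only). It was not called against GFP-only cells in RFP-only (1.64 ± 0.63, adjusted p = 0.0873) or double-positive cells (1.16 ± 0.63, adjusted p = 0.274), although no RFP-only library overlapped a GFP-only one; the former was called at adjusted p = 0.0496 in a fit of those 2 populations alone and without GFP-only litter 2 (0.039) or double-positive litter 1 (0.032).

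**Figure D2:**
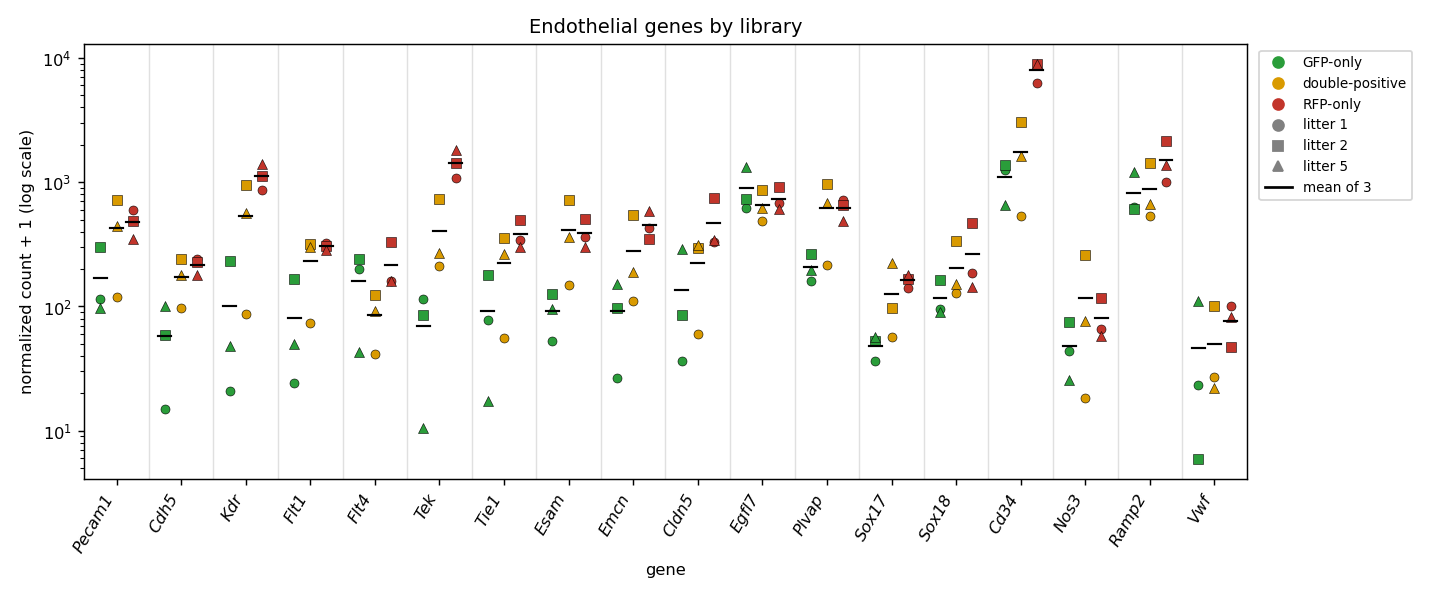
Normalized counts of the 18 endothelial genes in each of the 9 libraries. The vertical axis is the normalized count + 1 on a log scale, colours give the population, symbols the litter, and bars the mean of 3 libraries. The double-positive circles of litter 1 are the lowest of their group in 17 of 18 genes, and Cd34 in RFP-only libraries reaches 6242 to 8963.

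Surface and transcription factor genes completed the endothelial set. Emcn, endomucin of capillary and venous endothelium, had normalized counts of 25.6, 95.5 and 151 (GFP-only), 109.5, 539 and 189 (double-positive) and 427, 351 and 588 (RFP-only). It was higher in RFP-only cells by 2.61 ± 0.68 (adjusted p = 0.0197), a call not held without RFP-only litter 1 or 5 (0.0565 and 0.0775), and differed by 1.62 ± 0.68 in double-positive cells (adjusted p = 0.168). Plvap, the protein of fenestral and caveolar diaphragms, had counts of 159, 262 and 197 (GFP-only), 213, 959.7 and 684 (double-positive) and 724, 658 and 486 (RFP-only). Only the double-positive library of litter 1 sat among the GFP-only values. Plvap was higher in RFP-only cells by 1.60 ± 0.49 (adjusted p = 0.0385), above the threshold at adjusted p = 0.0547 with no filter on low genes and 0.0597 after quantile normalization and without GFP-only litter 1 or 5 (0.087 and 0.0685) or RFP-only litter 1, 2 or 5 (0.124, 0.101 and 0.0683); in double-positive cells it differed by 1.36 ± 0.49 (adjusted p = 0.11), called at adjusted p = 0.011 with DESeq2 and without double-positive litter 1 (0.0128). Sox17, a transcription factor of arterial endothelium, had counts of 35.5, 51.4 and 55.6 (GFP-only), 55.7, 96.7 and 223 (double-positive) and 139, 164 and 179 (RFP-only). Neither Creb5 population overlapped the GFP-only one, with double-positive litter 1 at its edge. The RFP-only difference was 1.76 ± 0.51 (adjusted p = 0.0323), a call that ended at adjusted p = 0.0594 with no filter on low genes and 0.0651 after quantile normalization or without GFP-only litter 1 (0.0757) or RFP-only litter 1, 2 or 5 (0.076, 0.0862 and 0.105), and the double-positive difference was 1.17 ± 0.51 (adjusted p = 0.183).

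Cd34 (chr1:194938819-194961279), a sialomucin of endothelial cells that connective tissue progenitors also carry, was the most abundant endothelial gene of RFP-only cells, at 1104 normalized counts per kilobase of exon. It had normalized counts of 1261, 1372 and 654 (GFP-only), 535, 3040.5 and 1625 (double-positive) and 6242, 8963 and 8940.3 (RFP-only). The RFP-only libraries stood far above the rest, and the double-positive libraries reached beyond the GFP-only range on both sides. Cd34 was higher in RFP-only cells than in GFP-only ones by 2.93 ± 0.52 (adjusted p = 0.0027) and lower in double-positive cells than in RFP-only ones by a log2 difference of -2.52 ± 0.52 (adjusted p = 0.0278). The second call ended at adjusted p = 0.0604 with edgeR or without double-positive litter 1 or 5 (0.0573 and 0.0774) or RFP-only litter 1, 2 or 5 (0.0602, 0.117 and 0.114). Without Cd34, the other 17 endothelial genes summed to 2281 to 3902 normalized counts in GFP-only, 2454 to 9023 in double-positive and 7604 to 10504 in RFP-only libraries. Of 10 fibroblast and tendon markers, 7 were higher in RFP-only cells than in GFP-only ones (11.8% of all genes were), as was Cd34. Their sums were 854931 to 1098238 in RFP-only and 95985 to 581936 in GFP-only libraries. In double-positive cells 4 were higher and 1 was lower than in GFP-only ones (5.27% and 3.02% of all genes). Cd34 was not called there (0.41 ± 0.52, adjusted p = 0.663). Against RFP-only cells 1 of the 10 was lower in double-positive cells (1.05% of all genes), as Cd34 was. The part of these markers in the Cd34 level was not tested.

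The remaining 8 endothelial genes were called in no comparison. Flt4 (the VEGF-C receptor VEGFR3), Tie1 (an orphan receptor beside Tek), Cldn5 (a tight junction claudin), Egfl7 (a secreted endothelial protein), Sox18 (a relative of Sox17), Nos3 (endothelial nitric oxide synthase), Ramp2 (a partner of the adrenomedullin receptor) and Vwf (von Willebrand factor) had RFP-only against GFP-only differences from -0.24 for Egfl7 to 2.58 for Tie1. Tie1 had a mean of 90.2 ± 81.4 normalized counts in GFP-only libraries and of 379 ± 103 in RFP-only ones (SD, n = 3), with adjusted p = 0.0506, and was called at adjusted p = 0.0431 with a pseudocount of 5, 0.0471 with a filter at a mean of 50, 0.0359 with litter as a block, 0.0478 with litter as a random block and 0.0254 with DESeq2 and without GFP-only litter 2 (0.0168) or double-positive litter 1 (0.0314). Cldn5 differed by 2.18 ± 0.78 (adjusted p = 0.0729), called at adjusted p = 0.0274 with litter as a block and without GFP-only litter 5 (0.0168) or double-positive litter 1 (0.0465). Flt4 was lower in all 3 double-positive libraries (40.4 to 123) than in the RFP-only ones (159 to 329.5), at -1.39 ± 0.67 (adjusted p = 0.415). Egfl7 went against the others with means of 896, 654 and 731 in GFP-only, double-positive and RFP-only cells and no call, and its ranges overlapped in all 3. Ramp2 shares 33.4% of its exonic bases with its same-strand neighbour Vps25, Nos3 25.2% and Sox17 16.8% with antisense genes, so some of their reads cannot be told from those of the neighbour.

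Double-positive endothelial levels differed between litters. The summed level of the 18 genes was 2989, 12064 and 7029.8 normalized counts in double-positive libraries of litters 1, 2 and 5, beside 3541, 4826 and 4556 in GFP-only and 13847, 19468 and 17552 in RFP-only libraries. The double-positive library of litter 1 was the lowest of its group for 17 of the 18 genes, and that of litter 2 the highest for 16. Among double-positive libraries, the erythroid and platelet markers were ordered alike, with sums of 9925, 78642 and 34878, litter 1 lowest in 7 and litter 2 highest in 8 of 10. The fibroblast and tendon markers were too, with sums of 279023, 640371 and 430195, litter 1 lowest in 8 and litter 2 highest in 10 of 10. The sums of Schwann and neuronal and of epidermal markers had that order as well. The part of any of these in the endothelial levels was not tested. Macrophage markers were ordered otherwise, at 3344, 8479 and 21559.6. So were skeletal muscle markers, at 895, 2729 and 3137, and chondrocyte markers, at 281702, 270952 and 789919. With double-positive litter 1 left out, double-positive cells had 11 of the 35 genes higher than GFP-only cells (855 of all genes called in place of 1472). Against RFP-only cells they had 1 higher and 1 lower (216 of all genes called in place of 506). Without double-positive litter 2, 5 were higher than in GFP-only cells (637 of all genes called in place of 1472).

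Pericyte genes had larger median differences from GFP-only than endothelial ones, which were not tested against each other. Of the 6 tested, 5 were higher and 1 was lower in RFP-only cells than in GFP-only ones (11.8% and 8.48% of all genes were). In double-positive cells 2 were higher than in GFP-only ones (5.27% of all genes) and 1 was higher than in RFP-only ones (1.8%). The medians were 3.09, 2.04 and -0.57, in that order. Rgs5 (chr1:169655501-169695813), a regulator of G-protein signalling and a standard pericyte marker, had normalized counts of 8.27, 20.8 and 29.8 (GFP-only), 429, 677 and 437 (double-positive) and 261, 465 and 496 (RFP-only). GFP-only libraries were all far below the rest, and the Creb5 populations overlapped each other. The differences from GFP-only were 4.77 ± 0.48 in double-positive (adjusted p = 0.000379; 5.54, 4.96 and 3.83 within litters) and 4.42 ± 0.48 in RFP-only cells (adjusted p = 0.000137; 4.82, 4.42 and 4.01 within litters). Double-positive and RFP-only cells differed by 0.36 ± 0.48 (adjusted p = 0.91).

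Mcam (chr9:44134469-44142727), the adhesion molecule CD146 of pericytes and endothelium, had normalized counts of 707, 632 and 483 (GFP-only), 2954, 2699 and 4109 (double-positive) and 1843, 1762 and 2563 (RFP-only). No library of any population overlapped another population, and double-positive cells were highest. Mcam was higher by 2.41 ± 0.25 in double-positive (adjusted p = 0.000445) and by 1.76 ± 0.25 in RFP-only cells (adjusted p = 0.000783) than in GFP-only cells; within litters the former was 2.06, 2.09 and 3.09. Double-positive and RFP-only cells differed by 0.66 ± 0.25 (adjusted p = 0.255), and the difference was 0.68, 0.61 and 0.68 in the 3 litters. Per kilobase of exon, Mcam stood at 971 normalized counts in double-positive cells, above all other pericyte genes there, 619 for Cspg4 and 239 for Pdgfrb included.

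Creb5 belongs to the CREB and ATF family, whose members bind the palindrome TGACGTCA, so promoter windows of the genes were searched for it. The windows run from 250 bases before to 50 after a RefSeq start (GRCm38.p6), and 20 of the 36 genes had at least 1. TGACGTCA was found in those of Mcam and Flt1, and in 1.79% of all 32851 windows. The sites are shown with 11 bases on each side, the palindrome in capitals:
Mcam, chr9:44134618-44134647, plus strand: ccccgccccccTGACGTCAgcccccgacag
Flt1, chr5:147726074-147726103, minus strand: gggggacccctTGACGTCActggaaggagg
The Mcam site starts 29 bases before the RefSeq start used and lies in an exon of 2 other GENCODE transcripts of Mcam, and the Flt1 site starts 81 bases before its RefSeq start, outside the GENCODE transcripts of Flt1. Mcam was called higher than in GFP-only cells in both Creb5 populations and Flt1 in RFP-only cells alone, as given above. Such calls were common with or without a site, at 20 of the 35 tested genes in RFP-only cells (11.8% of all genes). In double-positive cells they were 9 of the 35 (5.27% of all genes). A link of site and level was not tested. On both strands, TGANTCA was found in the window of Mylk (7.81% of all windows) and CCGGAA in those of Kdr and Mylk (14.9%). These letters are a description of the windows; binding was not measured here.

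Kcnj8 and Abcc9 encode the Kir6.1 pore and the SUR2 subunit of the potassium channel of pericytes and vascular smooth muscle. Kcnj8 had normalized counts of 37.2, 86.9 and 106 (GFP-only), 33.6, 979 and 333 (double-positive) and 1037, 2020.3 and 1527 (RFP-only). Abcc9 had counts of 0, 6.12 and 50.2 (GFP-only), 23.1, 248 and 172 (double-positive) and 579.7, 749.7 and 909 (RFP-only). Both subunits were higher in every RFP-only library than in any other library, and the double-positive library of litter 1 was as low as GFP-only libraries. The RFP-only differences were 4.38 ± 0.94 for Kcnj8 (adjusted p = 0.00753) and 6.68 ± 1.22 for Abcc9 (adjusted p = 0.00312), the latter against GFP-only libraries that held 42 reads in all and 0 in litter 1. Against GFP-only, double-positive cells differed by 1.66 ± 0.94 for Kcnj8 (adjusted p = 0.297), called without double-positive litter 1 (0.0177). They differed by 3.82 ± 1.22 for Abcc9 (adjusted p = 0.0797), called at adjusted p = 0.0274 with litter as a block and without GFP-only litter 5 (0.0134). Between double-positive and RFP-only cells Kcnj8 differed by -2.71 ± 0.94 (adjusted p = 0.189), called without double-positive litter 2 (0.0449).

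Pdgfrb (chr18:61045150-61085061), the PDGF receptor that recruits mural cells and that fibroblasts also carry, had normalized counts of 1697, 1770.3 and 349 (GFP-only), 854, 1415 and 1653 (double-positive) and 3353, 3269 and 4143 (RFP-only). The GFP-only library of litter 5 was the lowest of the 9, and RFP-only libraries stood apart from both other groups. Pdgfrb was higher in RFP-only cells than in GFP-only ones by 1.81 ± 0.53 (adjusted p = 0.0327), a call that ended at adjusted p = 0.0642 in a fit of those 2 populations alone and 0.0636 with edgeR or without RFP-only litter 1, 2 or 5 (0.0797, 0.0717 and 0.106). Double-positive cells differed from RFP-only cells by -1.50 ± 0.53 (adjusted p = 0.195), which was called at adjusted p = 0.0156 in a fit of those 2 populations alone and 0.0464 with DESeq2 and without GFP-only litter 5 (0.00614).

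Cspg4 (chr9:56865033-56899870), the NG2 proteoglycan of pericytes that developing cartilage also makes, went the other way from the pericyte set. It had normalized counts of 12104, 15047 and 13273 (GFP-only), 4545, 6209.6 and 11409 (double-positive) and 782, 1494 and 1129.8 (RFP-only). The 3 populations did not overlap, and per kilobase Cspg4 was the most abundant of the 36 genes in GFP-only cells, at 1129. It was lower in RFP-only cells than in GFP-only ones by a log2 difference of -3.61 ± 0.33 (adjusted p = 4.12e-05) and higher in double-positive cells than in RFP-only ones by 2.64 ± 0.33 (adjusted p = 0.00159). Double-positive against GFP-only cells gave -0.97 ± 0.33 (adjusted p = 0.0977), called without double-positive litter 5 (0.0288). All 10 chondrocyte markers were lower in RFP-only cells than in GFP-only ones too (8.48% of all genes were), with a median of -8.14. All 10 were higher in double-positive cells than in RFP-only ones (1.8% of all genes were), with a median of 5.49. Their part in the level of Cspg4 was not tested.

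**Figure D3:**
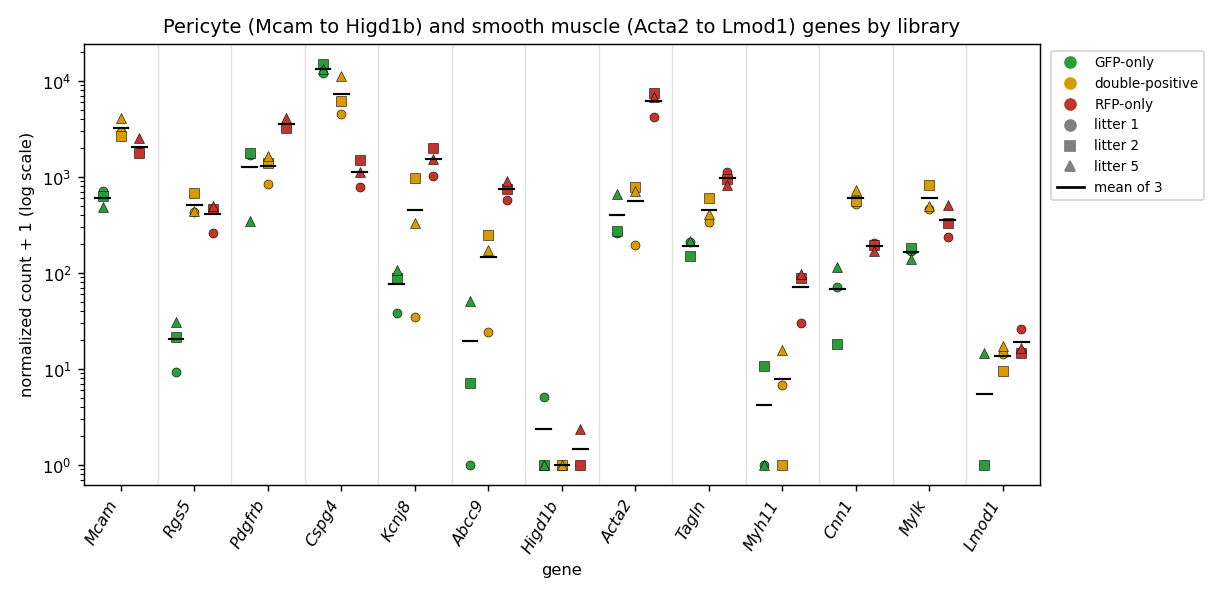
Normalized counts of the 7 pericyte and 6 smooth muscle genes in each of the 9 libraries. The vertical axis is the normalized count + 1 on a log scale, colours give the population, symbols the litter, and bars the mean of 3 libraries. Cspg4 is highest in GFP-only and lowest in RFP-only libraries, Rgs5, Mcam, Cnn1 and Mylk have their highest mean in double-positive cells, and Acta2 is high in RFP-only libraries alone.

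The smooth muscle genes belong to the contractile apparatus. Of the 6, 4 were higher in RFP-only and 3 in double-positive cells than in GFP-only ones (11.8% and 5.27% of all genes were). In double-positive cells 1 was lower than in RFP-only ones (1.05% of all genes were). The medians were 2.63, 1.52 and -0.80, in that order. Acta2 (chr19:34241090-34255590), smooth muscle α-actin, had normalized counts of 259.6, 275 and 665 (GFP-only), 195, 792 and 720.0 (double-positive) and 4264, 7532 and 6896 (RFP-only). RFP-only libraries were the only high ones, and the other groups overlapped. Acta2 was higher in RFP-only cells than in GFP-only ones by 4.06 ± 0.53 (adjusted p = 0.000413) and lower in double-positive cells than in RFP-only ones by a log2 difference of -3.65 ± 0.53 (adjusted p = 0.00392; -4.44, -3.25 and -3.26 within litters). Double-positive and GFP-only cells differed by 0.41 ± 0.53 (adjusted p = 0.667). Skeletal muscle markers, whose embryonic cells also make Acta2, moved the same way. Of 12 tested, 11 were higher in RFP-only cells than in GFP-only ones (11.8% of all genes were). In double-positive cells 6 of the 12 were lower than in RFP-only ones (1.05% of all genes were). The markers summed to 8219.9, 31990.1 and 26965 in the RFP-only libraries. Pax7, Pax3, Myh8 and Ckm were at 0 in at least 1 GFP-only library while Myod1 and Myog were above 0 in all. The part of skeletal muscle markers in the Acta2 level was not tested.

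Serum response factor acts on smooth muscle genes through the CArG box, and no window of the 20 genes held an exact one (1.63% of all windows did). Acta2 and Mylk were among the smooth muscle genes with a window. Genes of the 36 without a window were not searched, so nothing is said of their promoters. With 1 substitution in the A and T core, a match was found in Acta2, Egfl7, Kdr and Tek, and in 8.50% of all windows. Acta2 held 2 such matches, shown with 10 bases on each side and the match in capitals:
Acta2, 84 bases before the RefSeq start, chr19:34255438-34255467, minus strand: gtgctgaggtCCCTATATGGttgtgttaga
Acta2, 34 bases before the RefSeq start, chr19:34255388-34255417, minus strand: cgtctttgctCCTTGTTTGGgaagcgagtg
Both lie in the exon of a GENCODE transcript that starts further upstream, Acta2-201. Of the 4 genes with a match, Acta2, Kdr and Tek were higher in RFP-only cells than in GFP-only ones and Egfl7 was not called. Such calls were common with or without a match, at 20 of the 35 tested genes (11.8% of all genes). This is a description of these few genes, and a link of match and level was not tested.

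Cnn1 (chr9:22099216-22109630), calponin, which restrains actomyosin, had its highest level in double-positive cells. It had normalized counts of 70.3, 17.1 and 114 (GFP-only), 524, 559.8 and 728 (double-positive) and 206, 195 and 171 (RFP-only). The 3 groups did not overlap. Cnn1 was higher in double-positive cells than in GFP-only ones by 3.50 ± 0.57 (adjusted p = 0.00443; 2.88, 4.95 and 2.66 within litters). In RFP-only cells it was higher by 1.85 ± 0.57 (adjusted p = 0.0403), a call that ended at adjusted p = 0.0609 with no filter on low genes, 0.0852 after quantile normalization, 0.0968 in a fit of those 2 populations alone and 0.0616 with edgeR or without GFP-only litter 2 (0.0587), double-positive litter 1, 2 or 5 (0.0593, 0.0601 and 0.0569) or RFP-only litter 1, 2 or 5 (0.114, 0.0974 and 0.0918). Double-positive exceeded RFP-only cells by 1.65 ± 0.57 (adjusted p = 0.185), called at adjusted p = 0.00969 in a fit of those 2 populations alone and 0.0245 with DESeq2 and without GFP-only litter 2 (0.0245). Acta2 and Cnn1 thus had their highest means in different Creb5 populations.

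Mylk, the myosin light chain kinase that starts contraction, had normalized counts of 170.3, 180.0 and 139.7 (GFP-only), 467, 822 and 505 (double-positive) and 236, 328 and 514 (RFP-only). Both Creb5 populations lay above all GFP-only libraries. The double-positive difference was 1.83 ± 0.36 (adjusted p = 0.0111), a call not held without double-positive litter 2 (0.0581). The RFP-only one was 1.07 ± 0.36 (adjusted p = 0.0565), called at adjusted p = 0.0153 with DESeq2 and without RFP-only litter 1 (0.0478). Tagln, the actin-binding protein SM22α, had counts of 210.0, 149 and 214 (GFP-only), 342, 600.3 and 409 (double-positive) and 1139.5, 959 and 830.2 (RFP-only), with no overlap between populations. Tagln was higher by 2.35 ± 0.30 in RFP-only (adjusted p = 0.000373) and by 1.21 ± 0.30 in double-positive cells (adjusted p = 0.0322), the latter a call that ended at adjusted p = 0.0756 after quantile normalization and 0.11 in a fit of those 2 populations alone or without GFP-only litter 2 (0.0767), double-positive litter 2 or 5 (0.132 and 0.0686) or RFP-only litter 1, 2 or 5 (0.0565, 0.0558 and 0.0505). Between double-positive and RFP-only cells Tagln differed by -1.14 ± 0.30 (adjusted p = 0.0742), called at adjusted p = 0.0396 in a fit of those 2 populations alone and 0.00728 with DESeq2 and without GFP-only litter 5 (0.0347). It shares 62.4% of its exonic bases with an antisense gene, Gm48529, and the strand setting of the counting is not given here.

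Myh11, the smooth muscle myosin heavy chain a marker of mature smooth muscle, was scarce. It had normalized counts of 0, 9.79 and 0 (GFP-only), 5.76, 0 and 15.0 (double-positive) and 28.9, 88.3 and 96.6 (RFP-only), from 8, 26 and 185 reads. Every RFP-only library was above all others, while 2 GFP-only libraries and 1 double-positive library had no read. The RFP-only difference was 4.85 ± 1.28 (adjusted p = 0.0207), a call that ended at adjusted p = 0.0748 with edgeR or without GFP-only litter 1 or 5 (0.0522 and 0.0546) or RFP-only litter 2 or 5 (0.0757 and 0.0881). Lmod1, the leiomodin that nucleates actin filaments in smooth muscle, had means of 4.52 ± 7.83, 12.8 ± 3.97 and 18.0 ± 6.21 (SD, n = 3) in GFP-only, double-positive and RFP-only libraries and was not called; without GFP-only litter 5, which held all its GFP-only reads, both Creb5 populations passed the threshold against it, double-positive at adjusted p = 0.0286 and RFP-only at adjusted p = 0.00841.

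Of the 5 angiogenic factors, 2 were higher in RFP-only cells than in GFP-only ones, and the same 2 in double-positive cells (11.8% and 5.27% of all genes were). In double-positive cells 1 of them was lower than in RFP-only ones (1.05% of all genes were). The medians were 1.93, 1.00 and -0.93, in that order. Vegfc (chr8:54077606-54187096), the ligand of Flt4 that drives lymphatic growth, was the only one of the 36 genes called in all 3 comparisons. It had normalized counts of 121, 143 and 119 (GFP-only), 312, 452 and 337 (double-positive) and 917, 1061 and 965 (RFP-only). The groups did not overlap. The differences were 2.93 ± 0.27 for RFP-only against GFP-only (adjusted p = 4.07e-05; 2.92, 2.88 and 3.00 within litters), 1.50 ± 0.27 for double-positive against GFP-only (adjusted p = 0.00724, but 0.0522 in a fit of those 2 populations alone) and -1.43 ± 0.27 for double-positive against RFP-only (adjusted p = 0.0171). The last did not hold without double-positive litter 1 or 5 (0.0874 and 0.0726) or RFP-only litter 1, 2 or 5 (0.0668, 0.0949 and 0.0787).

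Pdgfb (chr15:79995874-80014977), the ligand of Pdgfrb that endothelial cells secrete, had normalized counts of 9.92, 35.5 and 25.8 (GFP-only), 139, 101 and 128 (double-positive) and 218, 302 and 291 (RFP-only). Each population was separate from the others, with RFP-only highest. Pdgfb was higher by 3.61 ± 0.49 in RFP-only (adjusted p = 0.000504) and by 2.48 ± 0.49 in double-positive cells (adjusted p = 0.0116, but 0.0582 in a fit of those 2 populations alone). Double-positive and RFP-only cells differed by -1.13 ± 0.49 (adjusted p = 0.336). Ligand and receptor were thus both higher in RFP-only cells than in GFP-only ones, while in double-positive cells the ligand was called and Pdgfrb was not (0.31 ± 0.53, adjusted p = 0.748); the 2 differences were not tested against each other.

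Vegfa (chr17:46016993-46032369), the main attractant of vessels, was abundant everywhere and called nowhere. It had normalized counts of 4773, 3559 and 1727 (GFP-only), 5266, 4608 and 6897 (double-positive) and 4800.4, 4086 and 5649 (RFP-only). All groups overlapped, and the GFP-only library of litter 5 was the low value. The differences were 0.84 ± 0.33 for double-positive (adjusted p = 0.15) and 0.64 ± 0.33 for RFP-only cells, both against GFP-only (adjusted p = 0.2). Per kilobase Vegfa ranked the second of the 36 genes in GFP-only (782) and RFP-only cells (1131, after Acta2 at 2837) and the highest in double-positive cells (1305). Of 10 other hypoxia response genes, 7 were lower and 1 was higher in RFP-only cells than in GFP-only ones, with a median of -1.74. Over all genes 8.48% were lower and 11.8% higher. In double-positive cells 2 of the 10 were lower than in GFP-only ones (3.02% of all genes, median -0.41). Against RFP-only cells 3 were higher in double-positive cells (1.8% of all genes, median 0.95). Slc2a1, the glucose transporter, was lower in RFP-only cells than in GFP-only ones by a log2 difference of -2.69 ± 0.33 (adjusted p = 0.000256). The sums of the 10 genes were 228097 to 380064 normalized counts in GFP-only, 124715 to 186618 in double-positive and 66355 to 89854 in RFP-only libraries. Their part in the Vegfa level was not tested.

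The angiopoietins were called nowhere. Angpt1, the Tek agonist that mural cells secrete, had normalized counts of 613, 400.3 and 174 (GFP-only), 219, 372 and 362 (double-positive) and 684, 397 and 484 (RFP-only), differing from GFP-only by 0.54 ± 0.45 in RFP-only cells (adjusted p = 0.415). GFP-only libraries overlapped both other groups, while every double-positive library lay below every RFP-only one, and 14.2% of its exonic bases lie over an antisense gene. Angpt2, its context-dependent antagonist, had counts of 38.9, 441 and 16.3 (GFP-only), 57.6, 221 and 187 (double-positive) and 243, 272 and 253 (RFP-only). The GFP-only library of litter 2 was far above the other GFP-only ones and above all RFP-only libraries. Angpt2 differed by 1.93 ± 0.97 in RFP-only (adjusted p = 0.18) and by 1.00 ± 0.97 in double-positive cells (adjusted p = 0.551). Both were called when that library was left out, RFP-only without GFP-only litter 2 (0.00455) and double-positive without GFP-only litter 2 (0.0434).

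**Figure D4:**
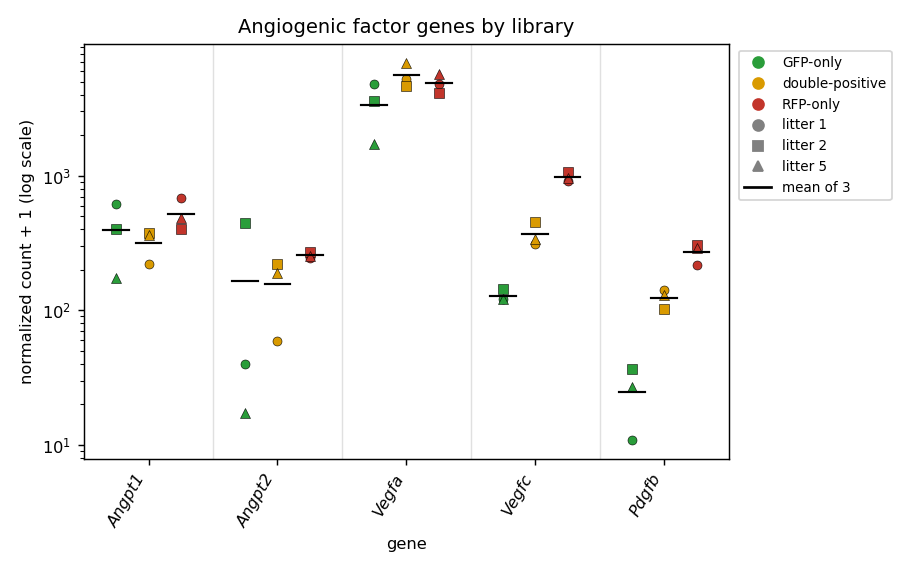
Normalized counts of the 5 angiogenic factor genes in each of the 9 libraries. The vertical axis is the normalized count + 1 on a log scale, colours give the population, symbols the litter, and bars the mean of 3 libraries. Vegfc lies at 119 to 143 in GFP-only, 312 to 452 in double-positive and 917 to 1061 in RFP-only libraries, and Angpt2 has a single high GFP-only library of 441.

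Other genes of the same pathways were taken as lists. Of 27 other endothelial genes tested, 9 were higher and 2 were lower in RFP-only cells than in GFP-only ones (median 1.96), 2 were higher and 1 was lower in double-positive cells (median 1.53), and 1 was higher in double-positive cells than in RFP-only ones (median -0.32). Over all genes 20.3%, 8.29% and 2.85% were called, so the counts in double-positive cells, 3 and 1 of 27, lie near the share of all genes. Rasip1, which shapes endothelial lumens through small GTPases, had a mean of 103 normalized counts in GFP-only, 294 in double-positive and 556 in RFP-only libraries and was higher by 2.47 ± 0.41 (adjusted p = 0.0016) and 1.53 ± 0.41 (adjusted p = 0.0417) in RFP-only and double-positive cells. The second call ended at adjusted p = 0.0624 with no filter on low genes, 0.0656 after quantile normalization, 0.117 in a fit of those 2 populations alone and 0.0514 with edgeR, and without GFP-only litter 1 or 5 (0.0901 and 0.0738), double-positive litter 2 or 5 (0.157 and 0.108) or RFP-only litter 1, 2 or 5 (0.0707, 0.0586 and 0.0614). Lmo2, a cofactor of blood and endothelial transcription, was higher in RFP-only cells by 3.43 ± 0.68 (adjusted p = 0.00487), and Notch4, an endothelial Notch receptor, in RFP-only cells by 2.26 ± 0.51 (adjusted p = 0.00944) and in double-positive cells by 2.17 ± 0.51 (adjusted p = 0.025). The double-positive call of Notch4 ended at adjusted p = 0.083 in a fit of those 2 populations alone, and without GFP-only litter 1 or 5 (0.0605 and 0.05002) or double-positive litter 1 or 2 (0.0939 and 0.0974). The ETS transcription factors Erg and Fli1 were lower in RFP-only cells than in GFP-only ones and not called between double-positive and GFP-only cells. For Fli1 the RFP-only difference was -1.27 ± 0.34 (adjusted p = 0.0219). That call ended without GFP-only litter 1 or 2 (0.063 and 0.0648) or RFP-only litter 2 or 5 (0.0839 and 0.0613). The double-positive difference of Fli1 from GFP-only was 0.56 ± 0.34 (adjusted p = 0.327). Erg, which endothelium and cartilage of joints both use, was lower in RFP-only cells than in GFP-only ones at -1.96 ± 0.39 (adjusted p = 0.00503), and Fli1 was higher in double-positive cells than in RFP-only ones by 1.83 ± 0.34 (adjusted p = 0.0156), a call that ended without double-positive litter 1 (0.0845) or RFP-only litter 2 or 5 (0.0828 and 0.0581).

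Of 19 other mural genes tested, 10 were higher and 2 were lower in RFP-only cells than in GFP-only ones (median 1.90), 3 were higher and 1 was lower in double-positive cells (median 0.70), and 1 was higher and 5 were lower in double-positive cells than in RFP-only ones (median -0.78), beside the same shares of all genes. Itga8, an integrin of mural and mesenchymal cells, was higher by 2.75 ± 0.27 in RFP-only (adjusted p = 7.03e-05) and by 1.99 ± 0.27 in double-positive cells (adjusted p = 0.00195). Tbx18, a transcription factor of mural cells and limb mesenchyme, was higher by 2.27 ± 0.24 (adjusted p = 0.000114) and 2.61 ± 0.24 (adjusted p = 0.000203). Heyl, a Notch target of mural cells, was higher in RFP-only cells than in GFP-only ones by 2.70 ± 0.37 (adjusted p = 0.000588). It was lower in double-positive cells than in RFP-only ones at -2.65 ± 0.37 (adjusted p = 0.00332). Double-positive and GFP-only cells differed by 0.05 ± 0.37 (adjusted p = 0.947). Ndufa4l2, a mitochondrial protein of pericytes that hypoxia induces, was lower in RFP-only cells than in GFP-only ones at -3.87 ± 0.59 (adjusted p = 0.00109) and higher in double-positive cells than in RFP-only ones by 4.05 ± 0.59 (adjusted p = 0.00417). Des, desmin of pericytes and of skeletal muscle, was higher in RFP-only cells by 5.02 ± 0.40 (adjusted p = 1.59e-05), as were the skeletal muscle markers above. It was also higher in double-positive cells than in GFP-only ones, by 2.31 ± 0.40 (adjusted p = 0.00632). There limma called 0 of 12 skeletal muscle markers (median 0.91), edgeR 0 and DESeq2 1. Between double-positive and RFP-only cells Des differed by -2.71 ± 0.40 (adjusted p = 0.00432). The part of muscle cells in its level was not tested.

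Of 21 other angiogenic ligands and receptors, 10 were higher and 2 were lower in RFP-only cells than in GFP-only ones (median 1.31), 7 were higher and 2 were lower in double-positive cells (median 0.65), and 2 were higher and 1 was lower in double-positive cells than in RFP-only ones (median -0.71), again beside 20.3%, 8.29% and 2.85% of all genes. Pdgfd, another Pdgfrb ligand, had means of 196, 599.6 and 1219 normalized counts in GFP-only, double-positive and RFP-only libraries, and was higher by 2.65 ± 0.27 in RFP-only (adjusted p = 8.14e-05) and by 1.61 ± 0.27 in double-positive cells (adjusted p = 0.00497). Cxcl12, a chemokine of perivascular stroma, was higher by 3.37 ± 0.37 (adjusted p = 0.000142) and 2.20 ± 0.37 (adjusted p = 0.00552). Cnmd, chondromodulin, an inhibitor of angiogenesis made by cartilage, was lower by a log2 difference of -6.82 ± 0.43 in RFP-only (adjusted p = 5.08e-06) and of -1.61 ± 0.43 in double-positive cells (adjusted p = 0.0414). The double-positive call ended at adjusted p = 0.0687 with no filter on low genes and 0.116 in a fit of those 2 populations alone, and without GFP-only litter 2 or 5 (0.0566 and 0.0584), double-positive litter 1 or 2 (0.131 and 0.154) or RFP-only litter 1, 2 or 5 (0.0602, 0.0642 and 0.0638). Pgf, placental growth factor, was lower in double-positive cells than in RFP-only ones at -1.33 ± 0.29 (adjusted p = 0.0343), a call that ended at adjusted p = 0.0592 with litter as a block and without double-positive litter 1, 2 or 5 (0.0955, 0.0968 and 0.0766) or RFP-only litter 1, 2 or 5 (0.081, 0.142 and 0.146). Adgrl4 and Tal1 of the endothelial list and Vtn of the mural list were without a read in the GFP-only population, and the medians were equal with their differences set to a bound.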

How the data were processed

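RNA of 9 libraries was sequenced, from 3 sorted populations in each of 3 litters. The deposited values are signal, gene counts the authors divided by a size factor per library; dividing by the step of low values recovered whole reads for 100.0% of values (tolerance 0.001). Per the submitters' processing notes, mm10 and the tools STAR, Salmon, FastQC and DESeq2 were used; versions, counting and strand settings are not given in the sources used here. Of 54532 genes, 54495 matched GENCODE M21.

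Genes with a mean of at least 10 normalized counts (17764) were tested on log2(value + 1) with limma 3.58.1 (trend, R 4.3.3) over all 9 libraries, with Benjamini-Hochberg adjustment, 3 comparisons sharing populations; fold changes on this scale understate those of low genes. No test over a list was made. The scripts were tested on simulated data. Alternatives were a pseudocount of 5, no filter and a filter at 50, TMM and quantile scaling, litter as a block, fits of 2 populations, edgeR 4.0.16 and DESeq2 1.42.0 on recovered reads, and leaving out each library.

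The members and lists were chosen with earlier results of these data known. Values of every library are given for defining members and for members called at least once with a mean of at least 100 in their highest population; from other lists, for each comparison, the called genes of smallest adjusted p were eligible, at most 3 in the commoner direction and 1 in the opposite one. Skeletal muscle markers at 0 are named besides, and some genes so chosen are given in other comparisons too. Levels per length are normalized counts per kilobase of exon. Litter is a label of the libraries and so pairs them; deviations from population means correlated at a median of 0.10 within a litter (9 pairs) and -0.04 between litters (18 pairs).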

Additional observations from a re-analysis of the deposited data

How the results depend on the processing

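Of 34 called differences of single genes, 17 were called under all 19 alternatives run for them and 19 with any 1 library left out; with 3 libraries a population, many adjusted p-values lie near the threshold. In the order used here (the double-positive and then the RFP-only population against GFP-only cells, then both Creb5 populations), 9, 21 and 4 genes were called. In a fit of 2 populations alone they were 4, 19 and 8, with DESeq2 10, 23 and 7, with edgeR 8, 16 and 3, and with 1 library left out 5 to 11, 13 to 23 and 2 to 7. With litter as a fixed block they were 11, 23 and 4, and as a random block 9, 22 and 4; the block ended no call of these genes, and Kdr, Abcc9, Tie1 and Cldn5 gained one, as given above. Over all genes, limma called 1472, 3601 and 506, edgeR 1236, 3191 and 411, and DESeq2 2780, 4696 and 1152. No scaling moved the median of all genes by more than 0.1.

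None of the 16 differences that turned in sign under an alternative was called. The turned values were -0.0123 for Ramp2 after quantile normalization and -0.0656 (edgeR) and -0.0917 (DESeq2) for Angpt2 in double-positive against GFP-only cells. In double-positive against RFP-only cells they were 0.0846 and 0.0734 for Esam and 0.56 and 0.55 for Nos3, with edgeR and DESeq2, and 0.0022 for Plvap with edgeR. With 1 library left out, double-positive against GFP-only differences ran from -0.16 to 1.09 for Cd34, -0.22 to 1.69 for Nos3, -0.37 to 0.37 for Ramp2, -0.38 to 1.74 for Vwf, -0.46 to 0.71 for Pdgfrb and -0.68 to 0.23 for Angpt1. RFP-only against GFP-only differences ran from -0.10 to 1.14 for Flt4 and -0.46 to 0.089 for Egfl7. Double-positive against RFP-only differences ran from -1.02 to 0.27 for Pecam1, -1.04 to 0.0113 for Flt1, -0.72 to 0.42 for Esam, -0.39 to 0.0109 for Egfl7, -0.68 to 0.40 for Plvap, -0.73 to 0.20 for Sox18 and -1.04 to 0.87 for Nos3. The cause of these changes was not tested.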

Other observations

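Of 6 lymphatic endothelial genes, 3 were higher in RFP-only and 2 in double-positive cells than in GFP-only ones (limma, medians 2.49 and 0.98; 11.8% and 5.27% of all genes were called higher), and between double-positive and RFP-only cells limma, edgeR and DESeq2 each called 0, with 2 at an unadjusted p under 0.05 by limma (median -1.22). Prox1, the transcription factor that sets lymphatic identity and that muscle progenitors also make, had normalized counts of 4.96, 41.6 and 33.9 (GFP-only), 19.2, 23.4 and 195 (double-positive) and 283, 297 and 595 (RFP-only), a difference of 4.16 ± 0.94 for RFP-only cells (adjusted p = 0.00945). Lyve1, a hyaluronan receptor of lymphatic endothelium and of some macrophages, had counts of 0, 56.3 and 20.4 (GFP-only), 157, 648 and 1673 (double-positive) and 107, 177 and 72.8 (RFP-only). It was higher in double-positive cells than in GFP-only ones by 5.70 ± 1.28 (adjusted p = 0.0208), a call that ended at adjusted p = 0.0596 in a fit of those 2 populations alone and without double-positive litter 2 or 5 (0.0811 and 0.0748). Its highest library, double-positive litter 5, was also the highest in summed macrophage markers (21559.6). Pdpn, podoplanin of lymphatic endothelium and of mesenchyme, was higher by 1.96 ± 0.32 in RFP-only (adjusted p = 0.00167) and by 1.55 ± 0.32 in double-positive cells (adjusted p = 0.015), the latter ending at adjusted p = 0.0553 in a fit of those 2 populations alone and without double-positive litter 2 (0.0752). The part of muscle and macrophage cells in these levels was not tested.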
